A study of Saccharomyces cerevisiae with 4 samples.

Results

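The 10 genes described here encode enzymes of ergosterol synthesis, from squalene synthase to the last reductase. They were taken by systematic name, by a rule that uses no ratio, though earlier results of these data were known when the pathway was picked, and all 10 were among the 5799 genes of the deposited table: ERG9 (YHR190W), ERG1 (YGR175C), ERG11 (YHR007C), ERG24 (YNL280C), ERG25 (YGR060W), ERG6 (YML008C), ERG2 (YMR202W), ERG3 (YLR056W), ERG5 (YMR015C) and ERG4 (YGL012W). The cells were of Saccharomyces cerevisiae strain BY4741, a haploid laboratory strain labelled MATa, with his3Δ1, leu2Δ0, met15Δ0 and ura3 alleles and LYS2. Both groups carried these alleles, and the labels number the ura3 allele differently from array to array. Acid-treated cultures were exposed to 30 mM acetic acid for 2 h, and untreated cultures were not, all in rich YPD medium at 28 °C after growth to an absorbance of 0.6. Each of 4 two-colour arrays held RNA of one acid-treated and one untreated culture. The acid-treated RNA carried Cy5 on 2 of them (named acid-Cy5, replicates 1 and 2) and Cy3 on 2 (acid-Cy3, replicates 1 and 2), and values are given in that order. The submitters' design text speaks of biological replicates, but the labels do not say whether same-numbered arrays share their RNA. If they do, p-values partly measure technical spread.

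Ergosterol is the main sterol of the yeast plasma membrane. Squalene synthase draws farnesyl diphosphate from the mevalonate branch into sterols, and the steps that follow close the rings, remove methyl groups and place the double bonds. Several of these enzymes use molecular oxygen, some are haem proteins, and the transcription factors Upc2 and Ecm22 are known to activate many of the genes when sterols run low. Sterol content is also known to bear on how readily acids cross the membrane. The comparison of acid-treated with untreated cells addresses how the transcriptome responds to acid stress.

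Values are deposited log ratios, read as log2 of acid-treated over untreated. The base and the direction are likely rather than stated. The weak-acid and stress genes YGP1 and HSP30 had mean ratios of 5.28 ± 0.90 and 5.52 ± 0.72 in this reading (SD, n = 4), and every sign below turns with the opposite one. Arrays had values for 5133 to 5505 genes, medians of -0.028 to 0.010 and SDs of 0.70 to 1.05 over all genes. All pairs of arrays correlated above 0, with the lowest Pearson's r for acid-Cy3 replicate 1 (0.41, 0.47 and 0.62, across genes, which are not independent replicates). Because the files hold ratios only, the level of no gene is known, and the labelled strain could not be checked against its markers. RNA came from whole cultures, so fewer cells of a kind and less RNA per cell cannot be told apart.

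The 10 genes did not share a direction. ERG9, at its entry, rose 1.62-fold and ERG2, in its later part, was 1.75-fold lower after acid, and the other 8 genes did not pass. A minimum of 3 arrays with a value left 5291 genes for the test, of which 10.9% passed limma at an adjusted p of 0.05, 8.85% higher and 2.02% lower, so 2 of 10 is near the share among all genes. These were 468 genes higher and 107 lower, against 541 and 268 after quantile normalization of the arrays, with ERG9 and ERG2 still the members called. Over the 15 alternative fits, most of them given at the end, the call of ERG9 was lost in 6 and that of ERG2 in 6. The median of the 10 mean ratios was -0.054, against -0.035 over all genes tested. The 10 means ran from -0.81 to 0.70, 4 above 0 and 6 below. Their median size, regardless of sign, was 0.51, against 0.31 over all genes tested. Their spread over arrays was larger too, with a median SD of 0.44 against 0.36, and 7 of the 10 had an SD above the all-gene median. None reached 2-fold, as 7.71% of all genes tested did. Before adjustment 5 of the 10 had a p under 0.05 (ERG9, ERG1, ERG11, ERG6 and ERG2), against 29.8% of all genes.

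**Figure D1:**
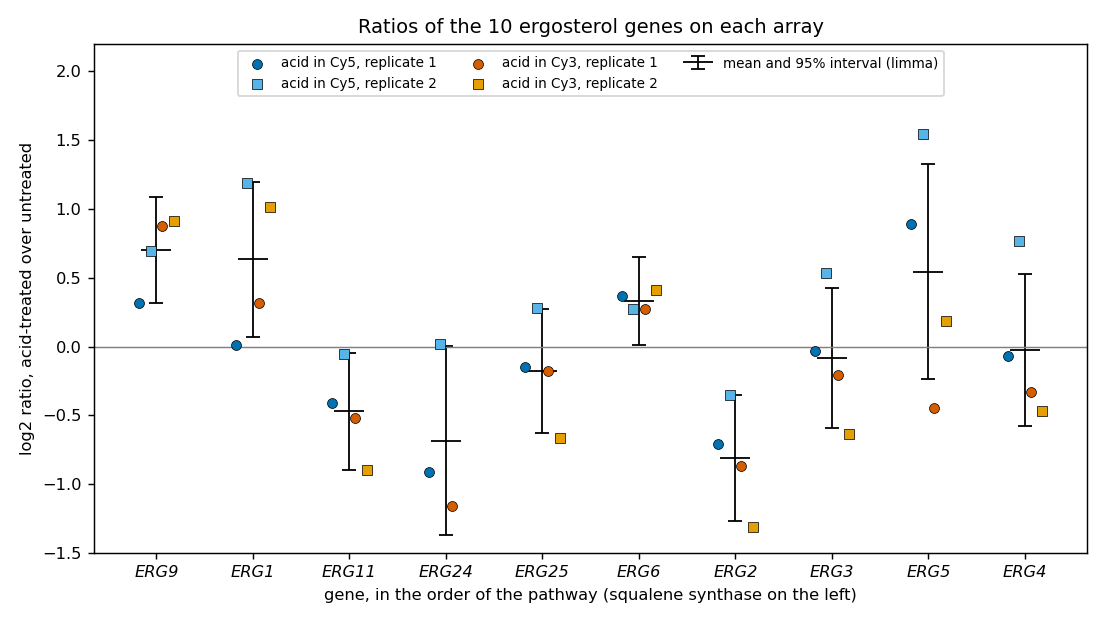
Log2 ratio of acid-treated over untreated RNA (vertical axis) for the 10 ergosterol genes in the order of the pathway (horizontal axis), with 1 point per array and the mean with its 95% interval from limma. ERG9 and ERG6 lie above 0 and ERG11 and ERG2 below 0 on all 4 arrays, and ERG5 spans 1.99 log2 units.

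ERG9 encodes squalene synthase, which joins a pair of farnesyl diphosphate molecules and commits carbon to sterols. Its ratios were 0.32 and 0.69 with acid in Cy5 and 0.88 and 0.91 with acid in Cy3. All 4 arrays were above 0, and acid-Cy5 replicate 1 was the lowest. The mean was 0.70 ± 0.27 (SD, n = 4, 95% interval 0.31 to 1.09, limma adjusted p = 0.0424), which placed ERG9 above 90.6% of the genes tested. The call was lost without acid-Cy5 replicate 1 (adjusted p = 0.0834), acid-Cy5 replicate 2 (0.139) or acid-Cy3 replicate 2 (0.184), with means of 0.83, 0.70 and 0.63. Over all genes, higher calls fell from 468 to 236, 204 and 176 in these fits.

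ERG1 encodes squalene epoxidase, the first oxygen-using step and the target of terbinafine. It had ratios of 0.010 and 1.19 with acid in Cy5 and 0.32 and 1.02 with acid in Cy3. Both replicate 2 arrays were near 1 and both replicate 1 arrays were lower, with acid-Cy5 replicate 1 at the level of no change. The mean of 0.63 ± 0.56 (n = 4) did not pass (adjusted p = 0.132), with an interval of 0.073 to 1.20.

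ERG11 encodes the cytochrome P450 that removes a methyl group from lanosterol and is the target of azole drugs. Its ratios were -0.41 and -0.054 with acid in Cy5, and -0.52 and -0.90 with acid in Cy3. All were below 0, that of acid-Cy5 replicate 2 barely so. The mean of -0.47 ± 0.35 (n = 4) did not pass (adjusted p = 0.138, interval -0.90 to -0.044). ERG24, the reductase gene of the step after Erg11, had -0.91 and 0.018 with acid in Cy5 and -1.16 with acid-Cy3 replicate 1, and no value on acid-Cy3 replicate 2. It was low on 2 arrays and near 0 on the third, and its mean of -0.68 ± 0.62 (n = 3) did not pass (adjusted p = 0.169, interval -1.37 to 0.0056). That mean was -1.04 without acid-Cy5 replicate 2 and -0.45 without acid-Cy3 replicate 1.

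ERG25 encodes the oxidase that starts the removal of the methyl groups at the fourth carbon of the sterol. Its ratios were -0.15 and 0.28 with acid in Cy5, and -0.18 and -0.67 with acid in Cy3, on both sides of 0. The mean was -0.18 ± 0.39 (n = 4, adjusted p = 0.546, interval -0.63 to 0.27), with -0.33 when acid-Cy5 replicate 2 was left out and -0.015 when acid-Cy3 replicate 2 was. ERG6 encodes the methyltransferase that adds a side-chain methyl group from S-adenosylmethionine and is absent from mammals. It was the steadiest of the 10, with 0.36 and 0.27 with acid in Cy5 and 0.28 and 0.41 with acid in Cy3. Its mean of 0.33 ± 0.069 (n = 4) did not pass in limma (adjusted p = 0.155, interval 0.012 to 0.65). Only 1.53% of the genes tested had a smaller SD over arrays.

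ERG2 encodes the isomerase that shifts a ring double bond and is a target of morpholine fungicides. Its ratios were -0.71 and -0.35 with acid in Cy5, and -0.87 and -1.31 with acid in Cy3. All 4 were below 0, and acid-Cy3 replicate 2 was the lowest. The mean of -0.81 ± 0.40 (n = 4, 95% interval -1.27 to -0.35, adjusted p = 0.0449) lay above only 4.76% of the genes tested. The call was lost without acid-Cy5 replicate 1 (adjusted p = 0.147), acid-Cy5 replicate 2 (0.0743) or acid-Cy3 replicate 2 (0.171), with means of -0.84, -0.96 and -0.64. Over all genes, lower calls fell from 107 to 12, 26 and 11 in these fits.

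ERG3, the gene of a ring desaturase whose loss is known to give azole resistance, had ratios of -0.029 and 0.54 with acid in Cy5, and -0.21 and -0.63 with acid in Cy3. Its mean was -0.084 ± 0.49 (n = 4, adjusted p = 0.810, interval -0.59 to 0.43), with the arrays on both sides of 0. ERG5, the gene of the side-chain desaturase and the second cytochrome P450 of the pathway, had 0.89 and 1.54 with acid in Cy5, and -0.45 and 0.19 with acid in Cy3. The arrays of each orientation kept apart, those with acid in Cy5 higher. Its mean of 0.54 ± 0.86 (n = 4) had the largest spread of the 10 (adjusted p = 0.296, interval -0.24 to 1.32), and was 0.21 without acid-Cy5 replicate 2 and 0.87 without acid-Cy3 replicate 1. ERG4, the gene of the last reductase, had -0.066 and 0.77 with acid in Cy5, and -0.33 and -0.47 with acid in Cy3. It was above 0 on acid-Cy5 replicate 2 alone, with a mean of -0.0245 ± 0.55 (n = 4, adjusted p = 0.953, interval -0.58 to 0.53).

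The oxygen-using enzymes did not stand on one side. Of the 5 genes, ERG1 and ERG5 had means above 0 and ERG11, ERG25 and ERG3 below, with a median of -0.084. Of the 5 others, ERG9 and ERG6 had means above 0 and ERG24, ERG2 and ERG4 below, with a median of -0.0245. The 2 P450 genes differed in sign, with -0.47 for ERG11 and 0.54 for ERG5.

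Ranks within an array, which no scaling of that array can change, placed the genes as follows. ERG9 stood at or above 74.1% to 91.1% of the genes measured on each array, and ERG6 at or above 64.8% to 77.9%. ERG2 stood at 5.52% and 21.4% with acid in Cy5, and at 19.7% and 1.31% with acid in Cy3. ERG11 reached 44.6% at most. ERG5 ran from 30.4% to 95.7%, and ERG3 from 11.3% to 81.2%, so their place depended on the array.

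**Figure D2:**
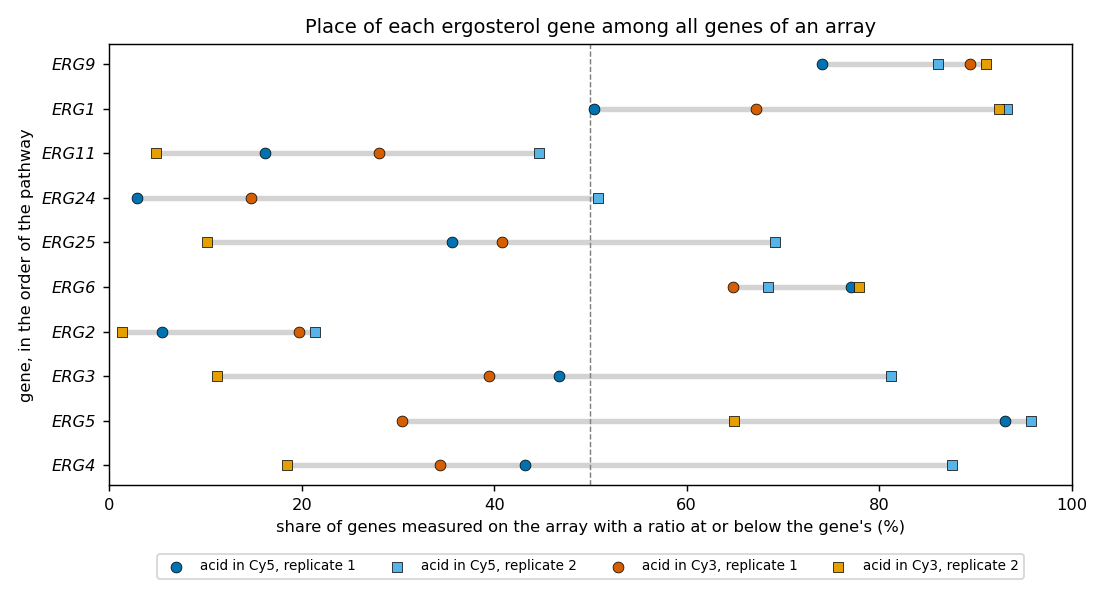
Place of each ergosterol gene (vertical axis, in pathway order) as the share of genes measured on an array whose ratio was at or below its own (horizontal axis, %), with 1 point per array, a bar over their range and a dashed line at 50%. ERG9, ERG1 and ERG6 lie right of the dashed line and ERG11 and ERG2 left of it on all 4 arrays.

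All 4 arrays had the same sign for 5 of the 10 genes, against 42.7% of all genes tested with one sign on every array that measured them. ERG9, ERG1 and ERG6 were above 0 on every array, and ERG11 and ERG2 below. Acid in Cy5 replicate 2 gave the highest ratio of 7 of the 9 genes with 4 values, as it did for 26.8% of all such genes, and acid-Cy3 replicate 2 the lowest ratio of 5 of the 9, against 21.9%. The median of the 10 genes was -0.0475 and 0.41 with acid in Cy5, and -0.27 and -0.47 with acid in Cy3, while the median of all genes stayed within 0.028 of 0 on each array. Without acid-Cy5 replicate 2 the median of the 10 means was -0.29, and without acid-Cy3 replicate 2 it was 0.11.

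Ratios were higher with acid in Cy5 than with acid in Cy3 for 7 of the 10 genes, against 52.1% of all genes tested. The median difference, Cy5 minus Cy3, was 0.52 for the 10 genes and 0.027 for all genes. ERG5 had the largest, 1.35 (means of 1.22 with acid in Cy5 and -0.13 with acid in Cy3), and ERG9 the lowest, -0.39 (0.51 with acid in Cy5 and 0.89 with acid in Cy3). ERG2 had -0.53 with acid in Cy5 and -1.09 with acid in Cy3. A dye term in limma passed for 0 of the 10 genes at an adjusted p of 0.05 and for 0.227% of all genes. Before adjustment the limma dye term had a p under 0.05 for ERG5 alone of the 10, and for 7.03% of all genes. ERG9, ERG1 and ERG6 kept means above 0, and ERG11, ERG24 and ERG2 below 0, in both orientations, while ERG25, ERG3, ERG5 and ERG4 were above 0 with acid in Cy5 and below 0 with acid in Cy3.

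**Figure D3:**
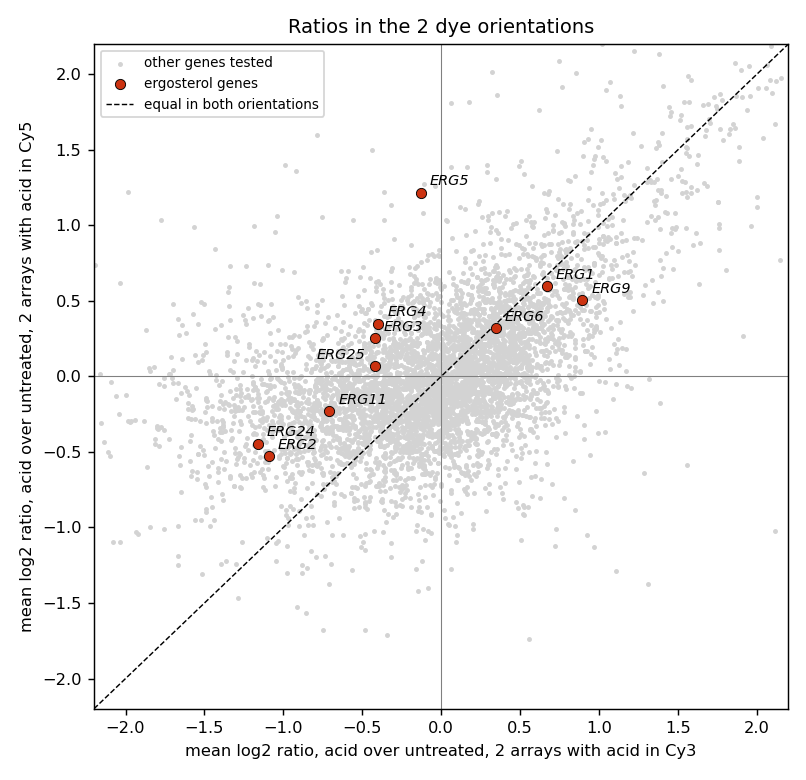
Mean log2 ratio of acid-treated over untreated RNA on the arrays with acid in Cy5 (vertical axis) against that on the arrays with acid in Cy3 (horizontal axis), for the 10 ergosterol genes (red) and other genes tested (grey), with a dashed line where both are equal; 138 genes lie outside the axes. ERG5, at 1.22 and -0.13, lies farthest from the line among the 10, and ERG1, ERG6 and ERG9 lie below it.

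A group of 5 of the 10 genes, ERG11, ERG25, ERG2, ERG3 and ERG4, followed one another from array to array. Each was highest on acid-Cy5 replicate 2, then acid-Cy5 replicate 1, then acid-Cy3 replicate 1, and lowest on acid-Cy3 replicate 2. Both arrays with acid in Cy5 thus lie above both with acid in Cy3. The pattern cannot be told apart from the difference between dye orientations given above, where these 5 are among the 7 genes. This order, 1 of 24 possible, held for 3.94% of the 4896 tested genes with 4 values. ERG6 and ERG5, whose steps lie between those of the 5, had other orders. In the related lists described below, ERG27, TGL1, SAY1 and OLE1 had the order too, so it was not particular to these 5. The group was picked after its values were seen, so these figures are a description. Differences between its genes were steadier than the genes themselves. ERG25 exceeded ERG2 by 0.56, 0.63, 0.69 and 0.65 on the 4 arrays, a mean of 0.63 ± 0.057 (SD, n = 4), whereas the SDs of the single genes were 0.39 and 0.40. ERG25 exceeded ERG11 by 0.29 ± 0.057 and ERG11 exceeded ERG2 by 0.34 ± 0.057, each on 4 of 4 arrays. The SD of the difference ran from 0.057 to 0.27 over the 10 pairs within the group and from 0.29 to 1.04 over the other 26 pairs of the 9 genes. Picking genes by a shared order favours small SDs within the group, so this contrast is no test. Over all 36 pairs of ergosterol genes the median SD of the difference was 0.54, against 0.53 over all pairs of tested genes. It was under 0.3 for 11 of the 36 pairs, and for 18.0% of all pairs. The 11 include all 10 pairs of the picked group, so this share is no test either.

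**Figure D4:**
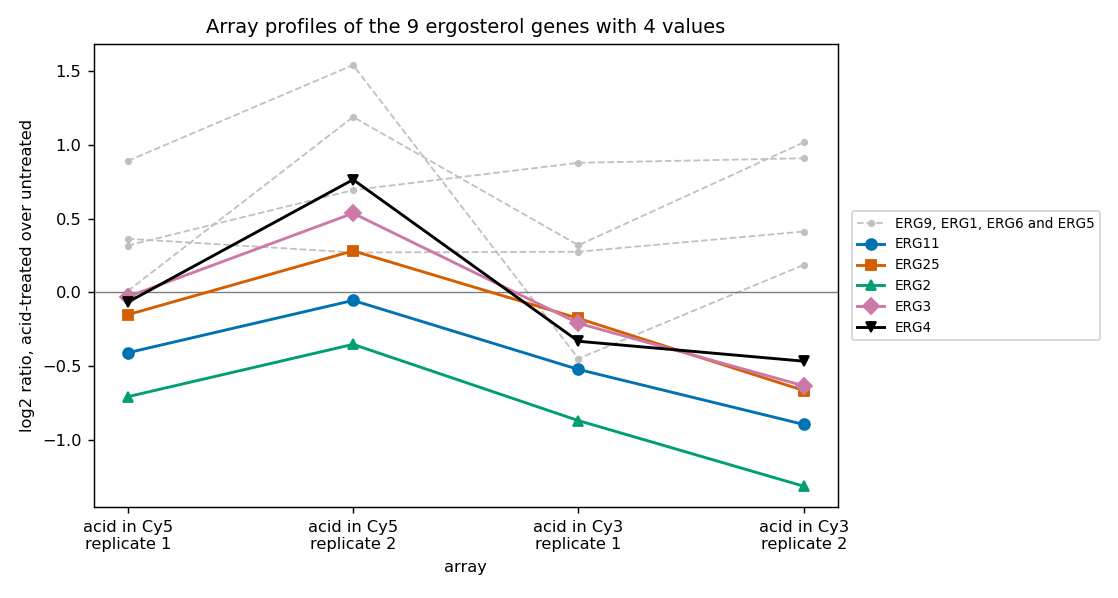
Log2 ratio of acid-treated over untreated RNA (vertical axis) on each array (horizontal axis) for the 9 ergosterol genes with 4 values; lines join the values of one gene across arrays, which have no order in time. ERG11, ERG25, ERG2, ERG3 and ERG4 (coloured or black) run nearly in parallel, and ERG9, ERG1, ERG6 and ERG5 (dashed grey) do not follow them.

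The order of the 9 genes by mean ratio was ERG9, ERG1, ERG5, ERG6, ERG4, ERG3, ERG25, ERG11 and ERG2. Of its 8 neighbouring pairs, ERG25 with ERG11 and ERG11 with ERG2 kept their order on 4 of 4 arrays, and for the other 6 the mean difference was smaller than its SD. Farther apart, ERG9 exceeded ERG2 by 1.51 ± 0.58 and ERG6 exceeded ERG2 by 1.14 ± 0.45, on 4 of 4 arrays each. Of all 36 pairs, 20 kept their order on 4 arrays (55.6%), against 43.2% of all pairs of tested genes. The 36 pairs are made from 9 genes and are not independent, and the difference in shares was not tested.

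Counts of the 7 related lists stand against 8.85% of all genes tested higher and 2.02% lower. The mevalonate branch, which makes farnesyl diphosphate, had 0 of 9 genes higher and 1 lower. HMG1, an isoenzyme of HMG-CoA reductase, the main control point of the branch, had -0.92 and -0.55 with acid in Cy5, and -0.73 and -1.52 with acid in Cy3, all below 0. It was 1.90-fold lower, with a mean of -0.93 ± 0.42 (n = 4, adjusted p = 0.0329). The call was lost without acid-Cy5 replicate 1 (adjusted p = 0.130), acid-Cy5 replicate 2 (0.0743) or acid-Cy3 replicate 2 (0.119). The paralogue HMG2 was also below 0 on 4 arrays, with a mean of -1.03 ± 0.77 (adjusted p = 0.0770), and cross-hybridisation between the similar sequences was not tested. The list had a median of 0.17, with the other 7 genes at means of 0.074 (ERG10) to 0.87 (IDI1, isopentenyl diphosphate isomerase, adjusted p = 0.0587).

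Among the other genes of the late steps, 1 of 6 tested rose and 0 fell, with a median of 0.13. DAP1 encodes a haem-binding protein that is known to act with Erg11. It had 2.35 and 1.58 with acid in Cy5 and 1.79 and 2.38 with acid in Cy3, high on every array. It rose 4.07-fold, with a mean of 2.02 ± 0.40 (n = 4, adjusted p = 0.00163; 0.0528 without shared variance), while ERG11 itself was below 0 on the same arrays. The lanosterol synthase gene ERG7, between ERG1 and ERG11 in the pathway, had a mean of -0.23 ± 0.22 (adjusted p = 0.337). ERG29 was not tested, as it had values on fewer than 3 arrays.

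Of 8 regulator genes 1 rose and 0 fell, with a median of 0.24. ROX1, a repressor of hypoxic genes, had 1.53 and 1.88 with acid in Cy5 and 2.37 and 2.10 with acid in Cy3. It rose 3.92-fold, with a mean of 1.97 ± 0.35 (n = 4, adjusted p = 0.00143). The genes of the sterol activators Upc2 and Ecm22 did not pass, with means of 0.27 ± 0.31 (n = 4, adjusted p = 0.314) and 0.23 ± 0.70 (n = 3, adjusted p = 0.635).

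Genes of sterol esters and sterol acetylation rose in 2 of 7 cases and fell in 0, with a median of 0.28. ARE2 encodes the main acyltransferase that makes sterol esters for storage. It had 3.18 and 4.12 with acid in Cy5 and 2.42 and 3.94 with acid in Cy3, at least 2.42 on every array. It rose 10.7-fold, with a mean of 3.42 ± 0.78 (n = 4, adjusted p = 0.00129; 0.0638 without shared variance). Its paralogue ARE1 had a mean of -0.0025 ± 0.30 (adjusted p = 0.993). ATF2, the gene of an acetyltransferase that also acts on sterols, rose by 0.96 ± 0.36 (adjusted p = 0.0220). Its call was lost without acid-Cy5 replicate 1 (adjusted p = 0.110), acid-Cy5 replicate 2 (0.0897) or acid-Cy3 replicate 2 (0.0959).

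In sterol uptake and transport 0 of 9 tested genes rose and 1 fell, with a median of -0.13. OSH2, an oxysterol-binding protein gene, had -0.86 and -0.70 with acid in Cy5 and -0.79 with acid-Cy3 replicate 1, and no value on the fourth array. Its mean was -0.78 ± 0.080 (n = 3, adjusted p = 0.0442), and the call was lost without acid-Cy5 replicate 1 (adjusted p = 0.200), acid-Cy5 replicate 2 (0.147) or acid-Cy3 replicate 2 (0.0936), the last although it had no value there. It was also lost with a dye term (0.0572) and with same-numbered arrays averaged (0.0798). PDR11, DAN1, HES1 and NCR1 were not tested.

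Haem is the cofactor of Erg11 and Erg5. Of 8 haem synthesis genes, 1 rose and 0 fell, with a median of 0.27. HEM13, whose enzyme uses oxygen, had 1.29 and 1.03 with acid in Cy5 and 1.07 and 1.26 with acid in Cy3. It rose 2.24-fold, with a mean of 1.16 ± 0.13 (n = 4, adjusted p = 0.00403). The call was lost with a minimum fold of 1.5 (limma adjusted p = 0.0754). Of 13 tested hypoxic genes, HEM13 among them, 5 rose and 0 fell, against 8.85% and 2.02% of all genes, with a median of 0.11. The other 8 did not pass. Means were above 0 for 7 of the 13 and below 0 for 6, the lowest at -0.66, so the list did not share a direction. CYC7, a cytochrome c isoform gene, rose by 3.04 ± 0.10 (adjusted p = 0.000141), the cell wall mannoprotein gene TIR3 by 2.10 ± 0.84 (adjusted p = 0.0109) and the fatty acid desaturase gene OLE1 by 1.22 ± 0.32 (adjusted p = 0.00860). The fifth, TIR2, rose by 0.81 ± 0.36 (adjusted p = 0.0383), a call lost without acid-Cy5 replicate 1 (0.162), acid-Cy5 replicate 2 (0.141) or acid-Cy3 replicate 2 (0.155), and with same-numbered arrays averaged (0.0753). TIR3 was not called without acid-Cy3 replicate 2 (adjusted p = 0.0704), and OLE1 not without acid-Cy5 replicate 1 (0.0548).

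**Figure D5:**
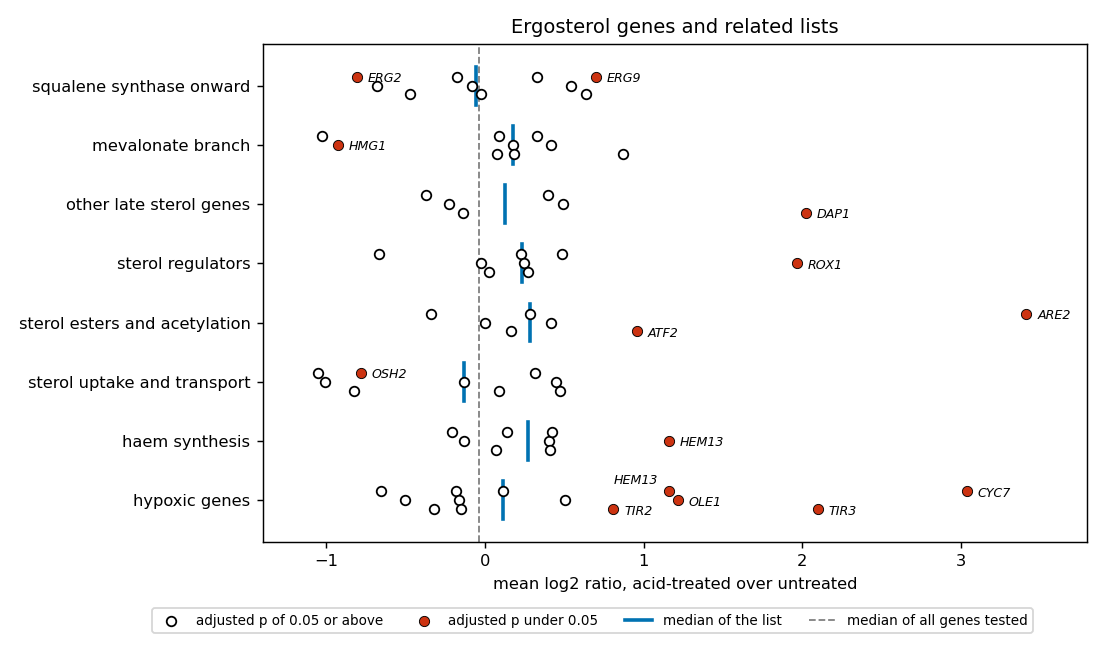
Mean log2 ratio of acid-treated over untreated RNA (horizontal axis) for each tested gene of the ergosterol pathway and of 7 related lists (vertical axis; HEM13 is in 2 of them), filled red where the adjusted p is under 0.05, with blue bars at the list medians and a dashed line at the median of all genes tested. ERG9 and ERG2 lie at 0.70 and -0.81, and ARE2 lies farthest right at 3.42.

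By root mean square difference over the 4 arrays, the genes outside the 10 most like ERG2 were ELO3 (0.092), SEC61 (0.12), YPQ1 (0.13) and ERV46 (0.14), among 4896 genes with 4 values. ELO3 had -0.77 and -0.23 with acid in Cy5 and -0.94 and -1.41 with acid in Cy3, and encodes a fatty acid elongase. SEC61 encodes the pore of the endoplasmic reticulum translocon. The 4 were picked for their likeness to ERG2, so no test of them is given.

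In the reference gene table (assembly R64) none of the 10 genes overlapped another listed gene. Of their 20 adjacent genes 14 were tested, of which 3 were higher and 1 lower, against 8.85% and 2.02% of all genes tested. ERG1, which did not pass, lies next to ATF2, and both were above 0 on all 4 arrays. The same sign on every array held for 42.7% of all genes tested. ERG25 lies next to the purine synthesis gene ADE6, which fell to a mean of -1.14 ± 0.31 (adjusted p = 0.0102), ERG5 next to SOK2 (1.16 ± 0.44, adjusted p = 0.0170) and ERG3 next to SPT8 (1.95 ± 0.69, n = 3, adjusted p = 0.0168). ERG9 and ERG2 each had 1 adjacent gene that was tested, and neither passed: CTF8, beside ERG9, had 0.027 ± 0.15 and TOM40, beside ERG2, 0.24 ± 0.37. PTH1, also beside ERG9, and RNA170, also beside ERG2, were not tested.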

How the data were processed

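The deposited values, taken as log2, are signed ratios of both channels of an array, 1 per gene, made by the authors. Acid-phenol extraction of total RNA and indirect labelling preceded hybridisation, per the labels' protocols. Base 2 is an assumption from the values; with another base every fold would change and the p-values of limma against 0 would not. Scanner, background correction, normalization, averaging of spots and filtering are in no source used here. The direction is not stated either and was taken as acid-treated over untreated because arrays of both orientations correlated above 0 and weak-acid genes lay above 0. Spot intensities were not analysed here.

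An intercept was fitted to the ratios of the 5291 genes with at least 3 values, in limma 3.58.1 (R 4.3.3; lmFit and eBayes, two-sided), with Benjamini-Hochberg adjustment over all of them and a threshold of 0.05. The fit was tested on simulated data. Gene symbols came from the R64 reference gene table, which matched 5316 of 5799 names. Deviations from the means of each orientation correlated at 0.252 between arrays of one number; with 2 such pairs they were not taken as paired.

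The members, the 7 related lists and the tests were chosen with earlier results of these data known. Named genes were the 10 members and, per list, up to 4 passing genes with the largest absolute mean ratio, or the 2 with the smallest p where none passed. The 4 genes most like ERG2, the member with the largest absolute mean ratio among those with 4 values, were named too. The other genes named (HMG2, ERG10, IDI1, ERG7, ERG27, UPC2, ECM22, ARE1, TGL1, SAY1, TIR2, untested genes and adjacent genes) were chosen after their values were seen. No promoter or protein sequence was used here.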

Additional observations from a re-analysis of the deposited data

How the results depend on the processing

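The alternatives were a dye term, same-numbered arrays as a random replicate block or averaged, centring, scaling, quantile normalization, other minimums of arrays, robust or no shared variance, a minimum fold of 1.5, and leaving out each array. The counts of 1 ergosterol gene higher and 1 lower became 0 and 0 with the replicate block by averaging same-numbered arrays. They did so too without shared variance and with a minimum fold of 1.5. Averaging leaves 2 values per gene. The minimum-fold fit tests against a 1.5-fold change instead of no change, and called 165 genes higher and 3 lower in all. Other causes of the losses were not tested. The random replicate block, whose estimated correlation over genes was -0.109, left both counts at 1 (adjusted p = 0.0295 for ERG9 and 0.0300 for ERG2 in limma); a correlation below 0 lowers the p-values of means. Over the leave-one-out fits the counts ranged from 0 to 1 each, and the median of the 10 genes from -0.29 to 0.11. ERG3 turned to 0.0997 without acid-Cy3 replicate 2. ERG4 turned to 0.0122 with arrays centred and scaled, and to 0.0777 and 0.123 with acid-Cy3 replicates 1 and 2 left out. The signs of the other 8 members held in all alternatives that gave a value; ERG24 has none with a minimum of 4 arrays. Of the related genes named with a call, HMG1, DAP1, ARE2, ATF2, OSH2, TIR3, OLE1 and TIR2 were not called without shared variance, a fit that called 188 genes higher and 16 lower in all. With a minimum fold of 1.5, HMG1, ATF2, OSH2, HEM13, OLE1 and TIR2 were not called. Over all genes, lower calls numbered 107, against 268 after quantile normalization, and 254 and 11 without acid-Cy3 replicates 1 and 2. Higher calls numbered 468, against 541, 645 and 176. Without acid-Cy5 replicates 1 and 2, lower calls numbered 12 and 26, and higher calls 236 and 204. Calls of single genes lost in the leave-one-out fits stand beside these falls.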
